A study of Mus musculus with 10 samples.

Results

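Interferon-stimulated effector genes are the genes through which a cell carries out an antiviral or cell-autonomous defence once an interferon receptor has been engaged. A list of 43 such genes was followed here in sorted prostate luminal cells, and each was taken from the array row annotated with exactly 1 gene symbol equal to its name. Of the 43, 42 were measured under a single symbol, out of 30142 genes tested, and Ifi44 is not analysed here. The 42 were divided into 7 GTPases best known for induction by interferon gamma (Igtp, Irgm1, Irgm2, Iigp1, Gbp2, Gbp3 and Gbp7) and 35 genes best known for the type I antiviral response. Many of these genes answer to both kinds of interferon, so the division is one of convention.

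The cells came from male mice with the genotype Hoxb13-rtTA|TetO-H2BGFP, in which a Hoxb13-driven transactivator switches on a histone-bound green fluorescent protein when doxycycline is given. The labels give 3 treatments. The regenerated group (4 arrays) came from mice that were castrated at 12 weeks of age, left for 6 weeks of regression and then given testosterone for 4 weeks through subcutaneous silastic implants. The castrated group (3 arrays) came from mice castrated at the same age and left for 6 weeks, and the intact group (3 arrays) came from untreated mice. All mice, whatever the treatment, carried both transgenes and drank doxycycline at 2 mg/ml for 1 week before death. Cells were sorted for green fluorescence, CD24 and intermediate CD49f, and cells carrying the leukocyte markers CD45, F4/80 or CD11b were left out. The reporter marks luminal epithelium in which Hoxb13 is active, so other prostate cells were not sampled by design. No group was castrated for the full span without testosterone, so testosterone and time since castration cannot be told apart. An age of the intact mice is not given here, so age and castration were not told apart in comparisons with intact cells.

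Type I interferons bind the receptor formed by IFNAR1 and IFNAR2, whose kinases JAK1 and TYK2 phosphorylate STAT2 among other substrates. A complex that holds STAT2 and IRF9 then binds the interferon-stimulated response element in the promoters of target genes. Interferon gamma uses a separate receptor and JAK1 with JAK2, and acts through the gamma-activated site. Epithelial cells at mucosal surfaces use both routes, and the luminal cells of the prostate line ducts that open to the urethra.

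To show the promoter letters on which these routes act, 10 windows of 120 bases that end at the base before the transcription start were read from the NCBI RefSeq promoter table of GRCm38.p6, in the direction of the gene. Capitals mark matches on either strand to the core of the response element, which is GAAA, any 2 bases and GAAA again, and to the gamma-activated site, TTCNNNGAA. The first 5 genes were called higher in castrated than in intact cells and hold a match, Ifit1, Oas3 and Oas1a hold a match and were not called, and Oasl2 and Xaf1 were called and hold none in this window. On the plus strand lie Igtp (chr11:58199436-58199555), Gbp2 (chr3:142620543-142620662), Ddx60 (chr8:61927967-61928086), Ifit1 (chr19:34640769-34640888), Oasl2 (chr5:114896814-114896933) and Xaf1 (chr11:72301509-72301628). On the minus strand lie Irgm1 (chr11:48871421-48871540), Isg15 (chr4:156200819-156200938), Oas3 (chr5:120777660-120777779) and Oas1a (chr5:120907526-120907645).
Igtp: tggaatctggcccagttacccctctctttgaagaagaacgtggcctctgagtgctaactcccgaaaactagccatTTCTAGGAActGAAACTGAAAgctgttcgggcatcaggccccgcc
Irgm1: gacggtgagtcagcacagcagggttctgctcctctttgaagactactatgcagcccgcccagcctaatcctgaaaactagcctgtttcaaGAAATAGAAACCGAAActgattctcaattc
Gbp2: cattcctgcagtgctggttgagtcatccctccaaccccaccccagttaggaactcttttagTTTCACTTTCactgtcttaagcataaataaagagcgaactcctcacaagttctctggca
Ddx60: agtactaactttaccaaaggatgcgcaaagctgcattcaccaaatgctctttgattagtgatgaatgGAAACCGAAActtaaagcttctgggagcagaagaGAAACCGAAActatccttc
Isg15: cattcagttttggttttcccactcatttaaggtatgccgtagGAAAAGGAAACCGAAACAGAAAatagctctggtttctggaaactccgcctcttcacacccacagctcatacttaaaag
Ifit1: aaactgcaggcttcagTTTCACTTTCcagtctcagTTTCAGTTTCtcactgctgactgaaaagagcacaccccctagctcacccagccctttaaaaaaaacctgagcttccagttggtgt
Oas3: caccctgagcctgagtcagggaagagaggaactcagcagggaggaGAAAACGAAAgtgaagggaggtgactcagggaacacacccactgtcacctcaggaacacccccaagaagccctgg
Oas1a: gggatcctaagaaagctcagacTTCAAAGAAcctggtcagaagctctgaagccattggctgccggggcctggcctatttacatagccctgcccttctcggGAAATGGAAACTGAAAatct
Oasl2: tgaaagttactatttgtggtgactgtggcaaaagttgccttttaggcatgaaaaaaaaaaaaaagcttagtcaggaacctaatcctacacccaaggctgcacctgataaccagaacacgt
Xaf1: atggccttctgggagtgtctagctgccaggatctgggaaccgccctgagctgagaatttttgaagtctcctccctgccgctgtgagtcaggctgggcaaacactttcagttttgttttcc

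Promoters from 250 bases before to 50 bases after the start were in that table for 33 of the 43 listed genes, 32 of them measured, and were missing for Dhx58, Iigp1, Mx1, Mx2, Oas2, Parp9, Parp14, Rtp4, Usp18 and Zbp1. The response element core was present in 20 of the 33 (60.6%), against 3.99% of the 27025 genes in the whole table. The gamma-activated site was present in 10 (30.3%), against 9.55% of all genes in the table, and 7 genes held both motifs. The motifs can overlap, as in Ifitm3 and Bst2, where the last letters of a gamma-activated site open a response element, and overlapping matches were each counted. All 6 GTPase genes in the table held the response element core and 3 of the 6 held the gamma-activated site. Among the genes called higher in castrated cells 9 of 15 (60.0%) held the response element core, and among those not called 11 of 17 (64.7%) did. A match says only that the letters are present.

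Levels are log2 intensities made by the authors with robust multi-array averaging (RMA), differences are differences of those log2 values, and errors of differences are standard errors from limma. A gene was called when its limma p-value, adjusted by the Benjamini-Hochberg method over all 30142 genes of a comparison, was under 0.05. In all arrays but castrated replicate 3 the highest of the 23 background control rows was at 4.66 to 5.58 log2. In castrated replicate 3 it was at 6.40, the highest value of all, which was taken as the background limit. Of the 42 genes, 15 had all 3 group means at or under that value, 5 of them GTPases, as had 20138 of all 30142 genes. Changes at such levels can be compressed. The number of arrays limits the precision, and the first principal component (44.3% of the variance) set the castrated arrays at 64.1 to 75.5, apart from the other 7 at -47.6 to 3, the last being regenerated replicate 4. The castrated arrays enter both main comparisons, so the rise against intact arrays and the fall after testosterone are not independent of each other.

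In castrated cells 20 of the 42 genes were higher than in intact cells, none was lower and 22 did not pass the test. Across all genes tested 8.01% were called in the same comparison, 4.82% higher and 3.19% lower. The median difference of the 42 was 1.16 log2, against 0.036 over all genes, and 37 of the 42 differences were positive, as were 58.5% over all genes. After testosterone 13 genes were lower in regenerated than in castrated cells and none was higher, where 4.98% of all genes were called, 3.01% lower and 1.97% higher. The median of the 42 in that comparison was -1.04 log2, against -0.015 over all genes. All 3 arrays of the castrated group lay above all 3 of the intact group for 25 genes and below them for none (17.4% and 11.5% of all genes did so), and all 4 regenerated arrays lay below all castrated arrays for 23 (9.51% of all genes). In bulk RNA of sorted cells a larger share of cells with a transcript and more of it per cell cannot be told apart. Markers of proximal luminal cells and urothelium shifted as well, with 4 of 9 genes higher and 1 lower in castrated than in intact cells. Their mean over the 9 genes was 9.60 to 10.60 log2 in regenerated arrays, 10.66 to 11.28 in castrated arrays and 8.93 to 9.11 in intact arrays. The part of these markers in the counts above was not tested.

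These counts moved with single arrays, as did those over all genes. The 20 calls became 9 without intact replicate 1, 11 without intact replicate 2 and 13 without castrated replicate 3. Over all genes the number called higher went from 1452 to 609, 696 and 1037 in those fits. Of the 42 genes, 9 passed in all 10 fits with 1 array left out: Igtp, Irgm1, Xaf1, Oasl2, Ddx60, Parp14, Dtx3l, Ifitm3 and Herc6. For regenerated against castrated cells the 13 calls became 7 without intact replicate 2, 5 without castrated replicate 3 and 6 without regenerated replicate 2 or 3. Over all genes the number called lower went from 907 to 628, 621, 538 and 571 in those fits. Igtp, Xaf1, Ddx60, Parp14 and Herc6 passed in all 10 fits.

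**Figure D1:**
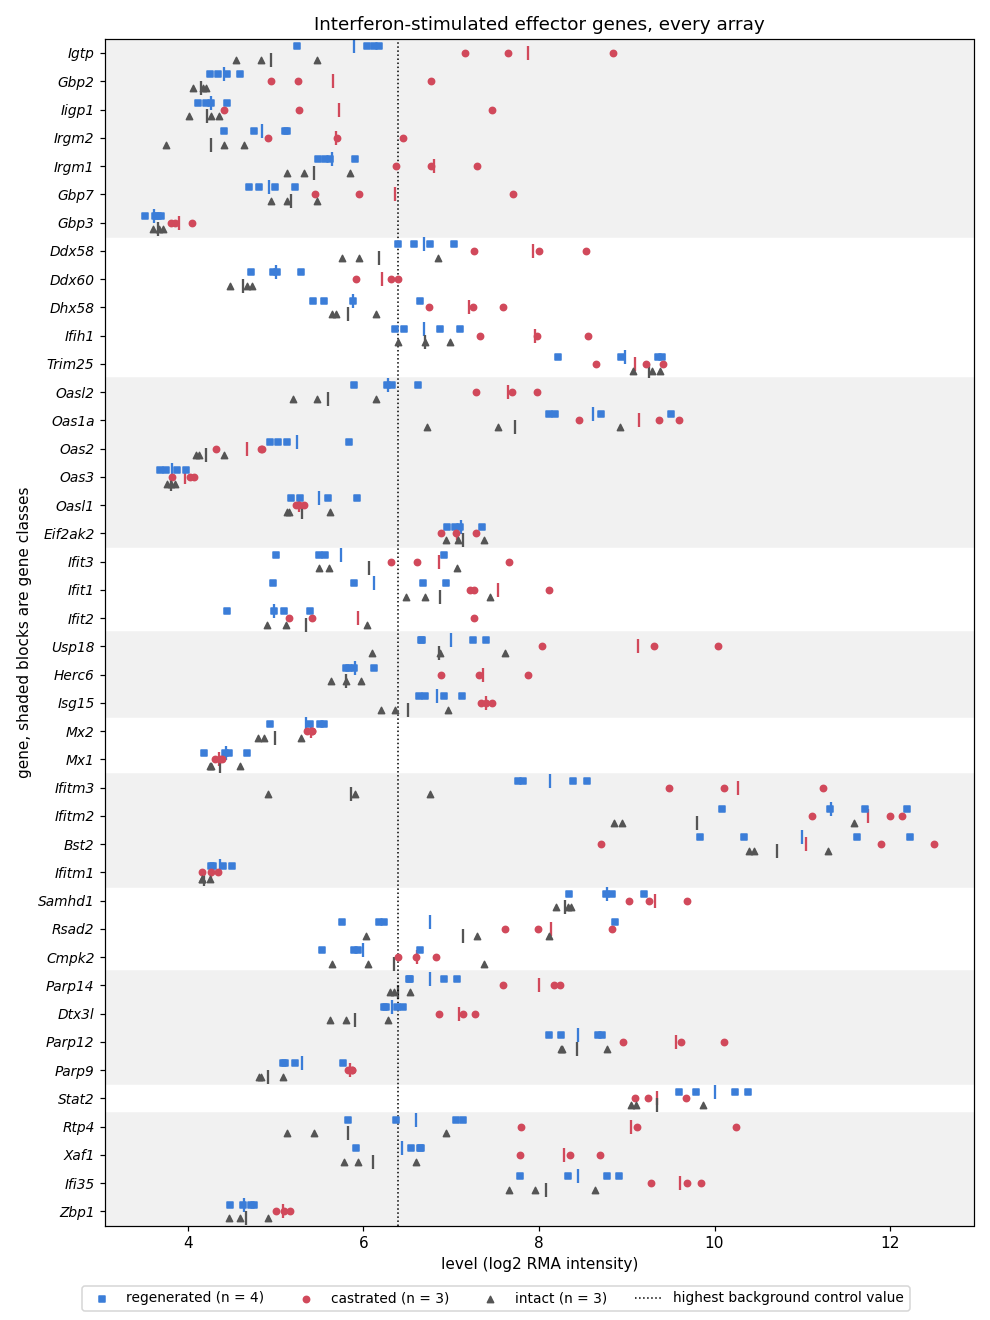
Level of each of the 42 genes (log2 RMA intensity, horizontal axis) in every array, with regenerated arrays (n = 4) as blue squares, castrated arrays (n = 3) as red circles and intact arrays (n = 3) as grey triangles. Vertical ticks are group means, shaded blocks are gene classes with the GTPases on top, and the dotted line is the highest background control value, 6.40. The red points lie to the right of the others for Igtp, Herc6, Ifitm3 and Xaf1, and the groups lie on top of each other for Mx1, Eif2ak2 and Trim25.

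Among the GTPases induced by interferon gamma, which are recruited to the vacuoles of intracellular bacteria and parasites, Igtp, Irgm1, Irgm2 and Gbp2 were higher in castrated than in intact cells. Igtp and Irgm1 were lower again in regenerated than in castrated cells. The median difference of the 7 genes was 1.42 log2 for castrated against intact and -1.25 for regenerated against castrated, and all 7 differences were positive in the first and negative in the second.

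Igtp, an immunity-related GTPase also called Irgm3, stood at 6.12, 5.24, 6.04 and 6.18 log2 in regenerated arrays, at 7.16, 7.65 and 8.84 in castrated arrays and at 4.83, 4.55 and 5.47 in intact arrays. Every castrated array was above every other array, and the regenerated and intact arrays overlapped. The difference was 2.93 ± 0.42 log2, or 7.62-fold, for castrated against intact (limma, adjusted p = 0.00223) and -1.99 ± 0.39 for regenerated against castrated (adjusted p = 0.0164). Irgm1, a regulatory member of the same family, had 5.48, 5.62, 5.56 and 5.91 log2 in regenerated arrays, 6.37, 6.77 and 7.30 in castrated arrays and 5.33, 5.13 and 5.85 in intact arrays. It showed the same order of groups, with the castrated arrays on top and no overlap with either other group. Its differences were 1.37 ± 0.25 log2 for castrated against intact (limma, adjusted p = 0.00887) and -1.17 ± 0.24 for regenerated against castrated (adjusted p = 0.0192, and up to 0.0618 without castrated replicate 2 or 3 or regenerated replicate 2 or 3).

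Irgm2, which lies close to Igtp on chromosome 11, was measured at 5.13, 4.41, 5.11 and 4.75 log2 in regenerated arrays, 4.92, 5.70 and 6.45 in castrated arrays and 3.75, 4.41 and 4.64 in intact arrays. Its lowest castrated array fell among the regenerated ones, though not among the intact ones. It rose by 1.42 ± 0.36 log2 in castrated against intact cells (limma, adjusted p = 0.0378), and the -0.84 ± 0.34 of regenerated against castrated cells did not pass (adjusted p = 0.21). Gbp2, a guanylate-binding protein that coats pathogen vacuoles, had 4.60, 4.25, 4.45 and 4.34 log2 in regenerated arrays, 4.95, 6.77 and 5.26 in castrated arrays and 4.17, 4.21 and 4.06 in intact arrays. Castrated replicate 2 was more than 1 log2 above the other castrated arrays, which still lay above all regenerated and intact ones. Castrated against intact gave 1.51 ± 0.36 log2 (limma, adjusted p = 0.0296), and without castrated replicate 2 it gave 0.96 ± 0.14 (adjusted p = 0.00516).

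Iigp1, the effector GTPase that oligomerises on the parasite vacuole, was at 4.26, 4.21, 4.12 and 4.45 log2 in regenerated arrays, 4.41, 7.47 and 5.27 in castrated arrays and 4.02, 4.36 and 4.27 in intact arrays. Gbp7 had 5.22, 4.70, 4.81 and 4.99 log2 in regenerated arrays, 5.45, 7.70 and 5.95 in castrated arrays and 5.13, 5.47 and 4.95 in intact arrays. In both genes castrated replicate 2 stood far above every other array of the study, and neither passed the test (limma, castrated against intact, Iigp1 1.5 ± 0.57, adjusted p = 0.16, and Gbp7 1.18 ± 0.45, adjusted p = 0.163). Gbp3 stayed between 3.51 and 4.05 log2 in all 10 arrays, with the castrated arrays on top by a narrow margin (0.24 ± 0.08 for castrated against intact, adjusted p = 0.117). Without intact replicate 1, 2 or 3 the call of Gbp2 was lost, as was that of Irgm2 without intact replicate 1 or 2, castrated replicate 2 or 3 or regenerated replicate 3 (adjusted p up to 0.0956 for Gbp2 and 0.155 for Irgm2). Without castrated replicate 1, which had the lowest castrated value of all 7 GTPases, 5 of the 7 were lower in regenerated than in castrated cells rather than 2, and the number called was 1 without castrated replicate 3, regenerated replicate 2 or regenerated replicate 3.

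Of the 35 type I antiviral genes 16 were higher in castrated than in intact cells and 19 did not pass (median difference 1.0 log2). In regenerated against castrated cells 11 of the 35 were lower and 24 did not pass (median -0.76). The changes were spread unevenly over the classes, from 3 of 3 in the ISG15 system and 4 of 5 among the RNA sensors and their regulators to none of the IFIT family and the Mx GTPases, differences between classes that were not tested.

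The cytoplasmic RNA helicases that detect viral RNA were higher in castrated cells. Ddx58, which encodes the sensor RIG-I, was at 7.03, 6.76, 6.58 and 6.39 log2 in regenerated arrays, 8.0, 7.26 and 8.54 in castrated arrays and 5.95, 5.76 and 6.85 in intact arrays. Castrated arrays lay above all others, by 1.75 ± 0.36 log2 over intact arrays (limma, adjusted p = 0.0142), and the -1.24 ± 0.33 of regenerated against castrated cells did not pass (adjusted p = 0.0621). Ifih1, which encodes the long-RNA sensor MDA5, had 7.10, 6.36, 6.46 and 6.87 log2 in regenerated arrays, 7.33, 8.56 and 7.98 in castrated arrays and 6.40, 6.70 and 6.99 in intact arrays. Its regenerated and intact means differed by 0.00 ± 0.30 log2, and its castrated arrays were above both groups (1.26 ± 0.32 against intact, limma, adjusted p = 0.0361, and -1.26 ± 0.30 for regenerated against castrated, adjusted p = 0.0366).

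Dhx58, which encodes LGP2, a helicase that tunes the other sensors, had 6.64, 5.55, 5.88 and 5.43 log2 in regenerated arrays, 7.25, 6.75 and 7.59 in castrated arrays and 5.64, 5.69 and 6.15 in intact arrays. Regenerated replicate 1 came close to the lowest castrated array without reaching it, and both differences passed (limma, 1.37 ± 0.32 for castrated against intact, adjusted p = 0.0261, and -1.32 ± 0.30 for regenerated against castrated, adjusted p = 0.032). Ddx60, a helicase described as a partner of RIG-I, was at 4.97, 4.72, 5.02 and 5.29 log2 in regenerated arrays, 5.92, 6.31 and 6.40 in castrated arrays and 4.48, 4.68 and 4.73 in intact arrays. All of its group means were at or under the background limit, yet the spread within groups was small, and it had the lowest adjusted p of the 42 genes in both comparisons (limma, 1.58 ± 0.17, adjusted p = 0.000524, and -1.21 ± 0.16, adjusted p = 0.00199). Trim25, the ubiquitin ligase that activates RIG-I, overlapped between all groups, at 8.22 to 9.40 log2 in regenerated arrays, 8.65 to 9.41 in castrated arrays and 9.07 to 9.38 in intact arrays (95% interval of castrated minus intact -0.88 to 0.58). Without intact replicate 1 or 2 the calls of Ddx58, Ifih1 and Dhx58 for castrated against intact were lost, as were those of Ifih1 without castrated replicate 2 or 3 or regenerated replicate 3 and of Dhx58 without castrated replicate 1 or 3 (adjusted p up to 0.0695, 0.148 and 0.108). For regenerated against castrated, Ifih1 passed only without intact replicate 3, castrated replicate 1 or regenerated replicate 1 or 4 among the 10 fits with 1 array left out, and Dhx58 only without intact replicate 3, castrated replicate 2 or regenerated replicate 1 (adjusted p up to 0.13 and 0.113).

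In the OAS family, whose catalytic members make the short 2'-5' linked oligoadenylates that switch on RNase L, Oasl2 alone passed. Oasl2, an OAS-like protein with ubiquitin-like domains, was at 6.62, 5.89, 6.33 and 6.27 log2 in regenerated arrays, 7.69, 7.28 and 7.98 in castrated arrays and 5.20, 5.47 and 6.14 in intact arrays. No castrated array overlapped another group (limma, 2.05 ± 0.28 log2 against intact, adjusted p = 0.00177, and -1.37 ± 0.26 for regenerated against castrated, adjusted p = 0.0136, which was 0.0565 without castrated replicate 3). Oas1a, a catalytic synthetase, was at 9.50, 8.18, 8.71 and 8.11 log2 in regenerated arrays, 9.59, 8.46 and 9.37 in castrated arrays and 7.53, 6.73 and 8.92 in intact arrays. Intact replicate 3 lay inside the castrated range and the other intact arrays below it, and the 1.41 ± 0.55 of castrated against intact did not pass (adjusted p = 0.172).

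Oas2 had 5.13, 4.94, 5.84 and 5.03 log2 in regenerated arrays, 4.84, 4.32 and 4.85 in castrated arrays and 4.13, 4.09 and 4.41 in intact arrays. It was the only one of the 42 genes whose regenerated arrays all lay above all castrated arrays (6.53% of all genes did so), and also above all intact arrays. None of its differences passed (limma, 0.57 ± 0.22 for regenerated against castrated, adjusted p = 0.185, and 1.03 ± 0.22 for regenerated against intact, adjusted p = 0.222). Oas3 and Oasl1 overlapped between castrated and intact arrays, as did Eif2ak2, the RNA-activated kinase PKR that halts translation (95% interval of castrated minus intact -0.48 to 0.36 for Eif2ak2).

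The IFIT genes, neighbours on chromosome 19 whose products bind foreign RNA ends, did not pass in any comparison. Ifit1 had 6.94, 5.89, 6.68 and 4.97 log2 in regenerated arrays, 7.26, 7.21 and 8.12 in castrated arrays and 6.70, 6.49 and 7.44 in intact arrays. Ifit2 had 5.39, 5.10, 4.98 and 4.45 log2 in regenerated arrays, 5.42, 7.26 and 5.15 in castrated arrays and 5.12, 4.90 and 6.04 in intact arrays. Ifit3 had 6.92, 5.0, 5.50 and 5.56 log2 in regenerated arrays, 6.31, 7.66 and 6.61 in castrated arrays and 5.49, 5.61 and 7.07 in intact arrays. In each of the 3 genes intact replicate 3 was the highest intact array and reached into the castrated range, and regenerated replicate 1 was the highest regenerated array. Castrated minus intact was 0.65 ± 0.48 for Ifit1, 0.59 ± 0.50 for Ifit2 and 0.80 ± 0.55 for Ifit3 (limma, adjusted p 0.512, 0.581 and 0.478), and castrated replicate 2 was the highest array of the study for Ifit2 and Ifit3. Without castrated replicate 2 the difference of Ifit2 was -0.07 ± 0.34.

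All 3 genes of the ISG15 system were higher in castrated than in intact cells. Isg15, a ubiquitin-like protein attached to newly made proteins, was at 7.12, 6.63, 6.92 and 6.70 log2 in regenerated arrays, 7.40, 7.34 and 7.47 in castrated arrays and 6.36, 6.20 and 6.96 in intact arrays. The castrated arrays lay close together and above all others, by 0.90 ± 0.22 log2 over intact arrays (limma, adjusted p = 0.0316), and -0.56 ± 0.20 for regenerated against castrated did not pass (adjusted p = 0.166). Usp18, the protease that removes ISG15 and restrains the type I receptor, was at 7.40, 6.67, 6.66 and 7.25 log2 in regenerated arrays, 10.04, 8.04 and 9.31 in castrated arrays and 6.10, 6.87 and 7.61 in intact arrays. It was 4.81-fold higher in castrated than in intact cells (2.27 ± 0.50 log2, limma, adjusted p = 0.0207) and fell by 2.13 ± 0.47 log2 in regenerated against castrated cells (adjusted p = 0.0283).

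Herc6, the mouse ligase that conjugates ISG15, had 5.80, 5.84, 5.89 and 6.12 log2 in regenerated arrays, 6.89, 7.32 and 7.88 in castrated arrays and 5.80, 5.97 and 5.63 in intact arrays. Regenerated and intact arrays covered the same narrow range and castrated arrays stood clear of it (limma, 1.57 ± 0.23 for castrated against intact, adjusted p = 0.00259, and -1.45 ± 0.22 for regenerated against castrated, adjusted p = 0.00373). The calls of Isg15 and Usp18 for castrated against intact were lost without intact replicate 1 or 2 or castrated replicate 1 or 3, and that of Isg15 also without castrated replicate 2 (adjusted p up to 0.131 and 0.0934). For regenerated against castrated, Usp18 was lost without intact replicate 2, castrated replicate 1 or 3 or regenerated replicate 2 or 3 (adjusted p up to 0.0948).

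Of the membrane restriction factors, Ifitm3 had the largest difference of the 42 genes. Ifitm3, a transmembrane protein that blocks fusion of viruses in endosomes, was at 7.76, 8.55, 7.82 and 8.39 log2 in regenerated arrays, 10.11, 9.48 and 11.24 in castrated arrays and 4.92, 5.90 and 6.76 in intact arrays. The 3 groups did not overlap at all, and the regenerated arrays lay between the others. Castrated cells were 21.3-fold above intact cells (4.41 ± 0.51 log2, limma, adjusted p = 0.000793), and regenerated cells were 2.14 ± 0.48 log2 below castrated cells (difference -2.14, adjusted p = 0.03). The second call was lost without intact replicate 2, castrated replicate 1 or 3, or regenerated replicate 1, 2 or 3 (adjusted p up to 0.0995). Ifitm2, its close paralogue, was at 12.19, 11.32, 11.71 and 10.09 log2 in regenerated arrays, 12.00, 11.11 and 12.14 in castrated arrays and 8.95, 8.86 and 11.59 in intact arrays. Intact replicate 3 lay within the castrated range and more than 2 log2 above the other intact arrays, and the difference of 1.95 ± 0.73 did not pass (adjusted p = 0.151).

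Bst2, the tether that holds budding virions at the cell surface, was at 12.23, 10.33, 11.62 and 9.83 log2 in regenerated arrays, 12.5, 11.90 and 8.71 in castrated arrays and 10.45, 10.39 and 11.29 in intact arrays. Castrated replicate 3 was the lowest array of the study and castrated replicate 1 the highest, so the spread within the castrated group exceeded any difference between groups (castrated minus intact 0.33 ± 0.91). Ifitm1 stayed between 4.16 and 4.51 log2 in all arrays, under the background limit. The Mx GTPases, which block viral ribonucleoproteins, stayed under it as well, with Mx1 at 4.19 to 4.68 log2 in regenerated arrays, 4.31 to 4.39 in castrated arrays and 4.25 to 4.60 in intact arrays, and neither Mx1 nor Mx2 passed (castrated minus intact -0.01 ± 0.13 and 0.41 ± 0.18, adjusted p 0.976 and 0.225). Probe sets of near-identical genes, such as Ifitm2 with Ifitm3, the IFIT genes, the OAS genes and the GBP genes, may pick up each other's transcripts, which was not tested.

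Among enzymes that act on nucleotides, Samhd1, which hydrolyses deoxynucleotides, was at 8.34, 9.20, 8.76 and 8.83 log2 in regenerated arrays, 9.25, 9.03 and 9.69 in castrated arrays and 8.19, 8.37 and 8.33 in intact arrays. It was 1.03 ± 0.26 log2 higher in castrated than in intact cells (limma, adjusted p = 0.0361), and regenerated arrays spread across the range between and into both groups. That call was lost without any 1 of the 3 intact arrays, castrated replicate 1 or 3, or regenerated replicate 3 (adjusted p up to 0.139). Rsad2, or viperin, which makes a chain-terminating nucleotide, had 8.87, 6.18, 6.24 and 5.76 log2 in regenerated arrays, 7.61, 7.99 and 8.83 in castrated arrays and 6.03, 7.29 and 8.11 in intact arrays. Regenerated replicate 1 was the highest array of the study and the other regenerated arrays were low, and all groups overlapped (castrated minus intact 1.0 ± 0.77, adjusted p = 0.536). Cmpk2, the neighbouring nucleotide kinase gene that makes viperin's substrate, had its highest array in intact replicate 3 (7.37) and its highest regenerated array in replicate 1 (6.65).

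The PARP group, ADP-ribosyltransferases induced by interferon and the partner ligase Dtx3l, moved together in sign. Parp14 was at 6.92, 6.53, 6.52 and 7.07 log2 in regenerated arrays, 7.59, 8.24 and 8.17 in castrated arrays and 6.30, 6.35 and 6.53 in intact arrays. Castrated arrays stood above both other groups (limma, 1.61 ± 0.23 against intact, adjusted p = 0.00209, and -1.24 ± 0.21 for regenerated against castrated, adjusted p = 0.00797). Dtx3l, which forms a complex with PARP9, was at 6.24, 6.26, 6.45 and 6.38 log2 in regenerated arrays, 7.27, 6.86 and 7.14 in castrated arrays and 5.62, 5.80 and 6.28 in intact arrays. It changed by 1.19 ± 0.19 for castrated against intact (limma, adjusted p = 0.00434) and by -0.76 ± 0.18 for regenerated against castrated (adjusted p = 0.0375).

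Parp9 itself had 5.11, 5.22, 5.08 and 5.77 log2 in regenerated arrays, 5.87, 5.87 and 5.82 in castrated arrays and 4.81, 4.84 and 5.09 in intact arrays. Regenerated replicate 4 came within 0.1 log2 of the castrated arrays and the other regenerated arrays did not, and only castrated against intact passed (limma, 0.94 ± 0.18, adjusted p = 0.0105, and 0.0554 without intact replicate 1). Parp12, which represses translation of alphaviruses, did not overlap between castrated and either other group but missed the threshold in both comparisons (limma, 1.13 ± 0.32, adjusted p = 0.0544, and -1.12 ± 0.29, adjusted p = 0.0573). The call of Dtx3l for regenerated against castrated passed only without intact replicate 1 or 3 or regenerated replicate 4 among the 10 fits with 1 array left out (adjusted p up to 0.113).

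Among the remaining effectors, Xaf1, a pro-apoptotic partner of XIAP, was at 6.65, 5.92, 6.66 and 6.54 log2 in regenerated arrays, 8.35, 7.79 and 8.69 in castrated arrays and 5.78, 5.94 and 6.60 in intact arrays. All castrated arrays were more than 1 log2 above every other array (limma, 2.17 ± 0.30 against intact, adjusted p = 0.00197, and -1.83 ± 0.28 for regenerated against castrated, adjusted p = 0.00465). Rtp4, a chaperone of membrane receptors, was at 7.14, 5.83, 6.37 and 7.06 log2 in regenerated arrays, 9.12, 7.80 and 10.25 in castrated arrays and 5.13, 5.44 and 6.94 in intact arrays. It was 9.31-fold higher in castrated than in intact cells (3.22 ± 0.63 log2, limma, adjusted p = 0.0123, and up to 0.063 without intact replicate 1 or 2) and fell by 2.45 ± 0.59 log2 in regenerated against castrated cells (adjusted p = 0.0419). That second call held only without intact replicate 3, castrated replicate 2 or regenerated replicate 4 among the 10 fits with 1 array left out (adjusted p up to 0.131).

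Ifi35, a partner of NMI, was at 8.91, 8.33, 8.78 and 7.78 log2 in regenerated arrays, 9.85, 9.28 and 9.69 in castrated arrays and 7.66, 7.95 and 8.64 in intact arrays. Castrated arrays did not overlap either group, and castrated against intact passed (limma, 1.52 ± 0.35, adjusted p = 0.0234, and up to 0.108 without intact replicate 1 or 2 or castrated replicate 1 or 3). Zbp1, the sensor of Z-form nucleic acids that can start necroptosis, was under the background limit and did not pass (0.43 ± 0.13, adjusted p = 0.0708). Stat2, the transducer of type I signals and itself a target of them, was at 10.38, 9.59, 9.79 and 10.23 log2 in regenerated arrays, 9.67, 9.09 and 9.24 in castrated arrays and 9.05, 9.10 and 9.87 in intact arrays. Castrated and intact means of Stat2 were equal within error (95% interval of the difference -0.69 to 0.68), and regenerated arrays overlapped both.

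**Figure D2:**
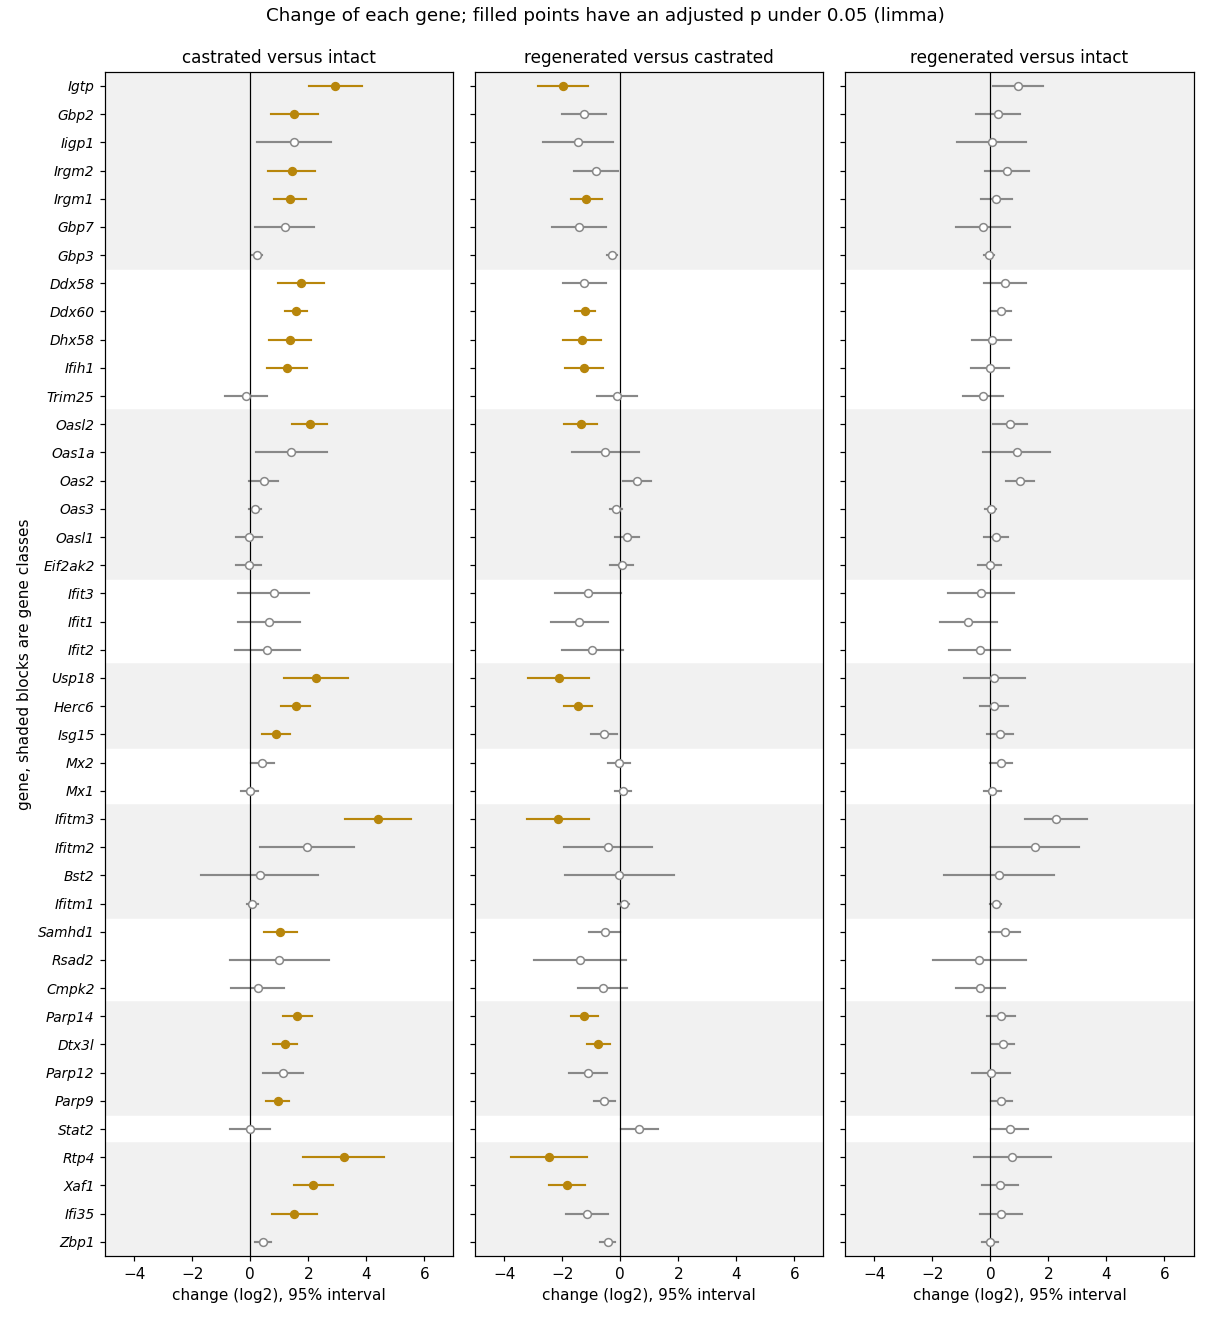
Difference between group means of each of the 42 genes (log2, horizontal axis) with its 95% interval, for castrated minus intact, regenerated minus castrated and regenerated minus intact cells from left to right. Filled points have a limma adjusted p under 0.05: 20 genes on the positive side in the first panel, 13 on the negative side in the second and none in the third.

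Regenerated cells were set against intact cells to see how far these genes had returned to the level of untreated mice. None of the 42 genes passed in that comparison with limma, and 9 had an unadjusted p under 0.05, as did 10% of all genes. Few genes passed anywhere on the array, 0.0365% in all, 0.0332% higher and 0.00332% lower, so the lack of calls does not show that the genes were back at the intact level. The median difference of the 42 was 0.23 log2, against 0.015 over all genes, and 31 of the 42 were positive, as were 54.6% over all genes. For 27 of the 42 genes the regenerated mean lay between the castrated and the intact mean (64.3%, against 43.6% of all genes).

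Ifitm3 kept the largest distance from intact cells, at 2.27 ± 0.48 log2 with no overlap (95% interval 1.21 to 3.33, limma, adjusted p = 0.222). Oas2, Gbp2 and Ifitm1 were the other genes whose regenerated arrays all lay above all intact arrays, so that 4 of the 42 lay above and none lay below, where 6.42% of all genes lay above and 3.23% below. Igtp stood 0.94 ± 0.39 log2 above intact cells (95% interval 0.08 to 1.81, adjusted p = 0.453). At the other end were Ifih1 at 0.00 ± 0.30, Dhx58 at 0.05 ± 0.30, Herc6 at 0.11 ± 0.22 and Usp18 at 0.14 ± 0.47, with 95% intervals that ran from -0.66 to 0.65, -0.62 to 0.72, -0.36 to 0.59 and -0.91 to 1.18. All 3 IFIT genes had regenerated means below the intact ones (Ifit1 -0.76 ± 0.45, Ifit2 -0.37 ± 0.47 and Ifit3 -0.31 ± 0.52), and none passed.

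Single arrays stood apart within groups. Intact replicate 3 was the highest of the 3 intact arrays for 32 of the 42 genes (76.2%), where it was the highest for 45.3% of all genes. The excess lay in the type I genes, 29 of 35 (82.9%), with 3 of the 7 GTPases. The median distance of intact replicate 3 from the mean of the other intact arrays was 0.57 log2 for the type I genes, 0.08 for the GTPases and 0.04 over all genes. The GTPases were split, with Igtp, Irgm1 and Irgm2 at 0.78, 0.62 and 0.56 log2. Iigp1, Gbp2, Gbp3 and Gbp7 were at 0.08, -0.13, 0.01 and -0.35. The widest distances of intact replicate 3 were those of Ifitm2 (2.69 log2), Oas1a (1.79), Rtp4 (1.66), Cmpk2 (1.52), Ifit3 (1.51) and Rsad2 (1.45). Intact replicate 3 was above the lowest castrated array for 15 genes, all of them type I, while intact replicates 1 and 2 were so for 4 and 6. Over all genes tested the 3 arrays in that order were so for 68.8%, 59.5% and 64.6%.

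Without intact replicate 3 the number of genes higher in castrated than in intact cells was again 20. Ifitm2 (2.85 ± 0.56 log2, limma, adjusted p = 0.0175) and Oas1a (2.01 ± 0.49, adjusted p = 0.0393) then passed. Gbp2 (1.47 ± 0.43, adjusted p = 0.0779) and Samhd1 (1.04 ± 0.30, adjusted p = 0.076) then did not. The IFIT genes and Rsad2 did not pass either way, although their differences were larger without that array (Ifit1 0.93 ± 0.53, Ifit2 0.94 ± 0.54, Ifit3 1.31 ± 0.53 and Rsad2 1.48 ± 0.84).

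In the castrated group, castrated replicate 1 had the lowest castrated value for all 7 GTPases, where it was the lowest for 38.0% of all genes. Castrated replicate 2 was the highest for Gbp2, Gbp3, Gbp7 and Iigp1, and castrated replicate 3 for Igtp, Irgm1 and Irgm2. Castrated replicate 2 was at the same time the lowest castrated array for 21 of the 35 type I genes (60.0%), where it was the lowest for 36.8% of all genes. Its distance from the mean of the other castrated arrays was 2.62 log2 for Iigp1, 2.00 for Gbp7 and 1.66 for Gbp2, against -1.89 for Rtp4, -1.64 for Usp18 and -1.20 for Ifitm3. Among regenerated arrays replicate 1 was the highest for 23 of the 42 genes (54.8%, against 24.6% of all genes) and replicate 2 the lowest for 19 (45.2%, against 26.5%). Both classes shared in this, with 4 of the 7 GTPases and 19 of the 35 type I genes highest in replicate 1, and 5 and 14 of them lowest in replicate 2. The labels name nothing that sets these arrays apart.

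**Figure D3:**
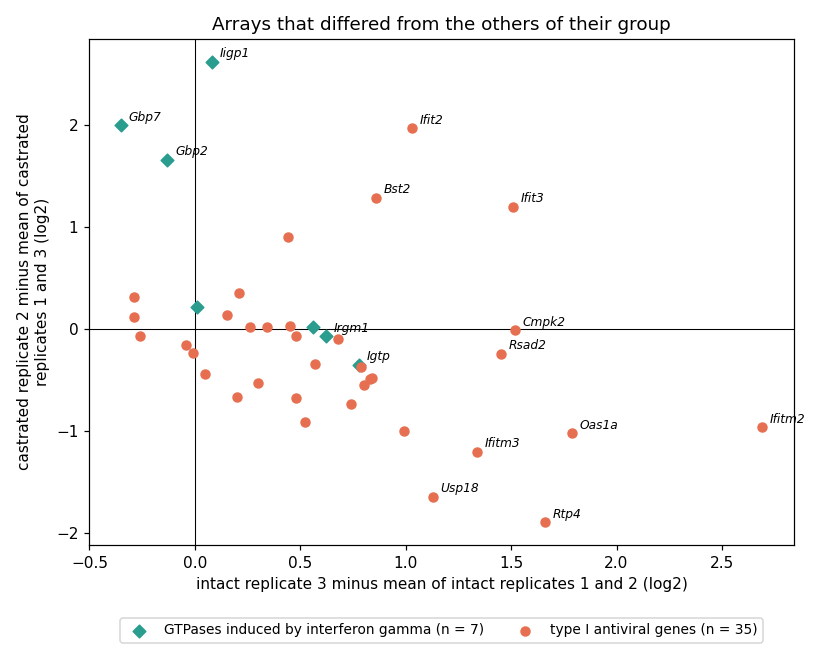
For each of the 42 genes, intact replicate 3 minus the mean of the other intact arrays (log2, horizontal axis) and castrated replicate 2 minus the mean of the other castrated arrays (log2, vertical axis), with the 7 GTPases as green diamonds and the 35 type I genes as orange circles. Most circles lie right of 0, out to 2.69 for Ifitm2, and Iigp1, Gbp7 and Gbp2 lie at the top, at 2.62, 2.00 and 1.66.

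The rest of the pathway was read from lists that hold none of the 42 genes. These lists too were chosen with earlier results of these data known. Of 18 interferon ligand genes 17 were measured, all had group means at or under the background limit (array values 3.09 to 5.26 log2), and none passed in any comparison. Ifng was at 3.32 to 3.55 log2 in regenerated arrays, 3.28 to 3.52 in castrated arrays and 3.31 to 3.50 in intact arrays, and Ifnb1 was at 3.98 to 4.33 log2 in regenerated, 3.94 to 4.41 in castrated and 3.85 to 4.13 in intact arrays. None of the 9 receptor and Janus kinase genes passed, and the receptor chain Ifnar1 averaged 7.34 ± 0.27 log2 in regenerated, 7.64 ± 0.28 in castrated and 7.45 ± 0.15 in intact arrays (SD).

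Of 8 measured transducer and feedback genes 2 were higher in castrated than in intact cells and none was lower. In that comparison 4.82% of all genes were higher and 3.19% lower. Irf9, the DNA-binding partner of STAT2, was at 8.38, 7.81, 7.63 and 7.48 log2 in regenerated arrays, 9.35, 8.44 and 8.95 in castrated arrays and 7.24, 7.24 and 7.91 in intact arrays. Its castrated arrays lay above the others (limma, 1.45 ± 0.31 against intact, adjusted p = 0.0187, and -1.09 ± 0.29 for regenerated against castrated, adjusted p = 0.0637). Ptpn2, a phosphatase of Janus kinases, was 1.25 ± 0.26 log2 higher in castrated than in intact cells (adjusted p = 0.0168). Of 12 measured genes upstream in nucleic acid sensing 2 were higher and 1 lower. Tlr3, the endosomal sensor of double-stranded RNA, differed by 1.42 ± 0.27 for castrated against intact (limma, adjusted p = 0.00952) and -1.48 ± 0.25 for regenerated against castrated (adjusted p = 0.00748), and Irf7, which drives interferon alpha genes, by 1.14 ± 0.30 (adjusted p = 0.0419) and -1.18 ± 0.28 (adjusted p = 0.0383). Mavs, the adaptor of RIG-I and MDA5, went the other way, at -0.68 ± 0.18 (adjusted p = 0.047) and 0.81 ± 0.17 (adjusted p = 0.0231).

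Over all genes 4.82% were higher and 3.19% lower in castrated than in intact cells, and 3.01% were lower in regenerated than in castrated cells. Of 11 other GTPases induced by interferon gamma 5 were measured, and 4 were higher in castrated than in intact cells and lower in regenerated than in castrated cells: Gbp4, Gbp8, Gbp9 and Gbp11. All 5 had group means at or under the background limit. Gbp4 had 4.90, 4.76, 4.91 and 4.78 log2 in regenerated arrays, 5.43, 7.02 and 6.22 in castrated arrays and 4.68, 4.81 and 4.79 in intact arrays. In all 4 of these genes castrated replicate 2 was the highest and castrated replicate 1 the lowest castrated array, the order also seen in Gbp2, Gbp3, Gbp7 and Iigp1. Of 34 other interferon-stimulated genes measured 10 were higher and 1 was lower in castrated than in intact cells, and 5 were lower in regenerated than in castrated cells. Sp100, a nuclear body protein, had the widest difference of that list (3.19 ± 0.42 log2 for castrated against intact, limma, adjusted p = 0.00156), and Psmb9, an immunoproteasome subunit, rose by 1.38 ± 0.27 (adjusted p = 0.0127), while Trafd1, a feedback regulator, fell by 1.22 ± 0.31 (difference -1.22, adjusted p = 0.0359).

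The label of the cells was set against markers, whose lists were also chosen with earlier results known. Of the luminal genes measured, Krt8, Krt18, Epcam and Cd24a were at 13.85 log2 or above in all arrays. Krt8 (1.37 ± 0.35, limma, adjusted p = 0.0364), Krt18 (1.41 ± 0.18, adjusted p = 0.00119) and the sort marker Cd24a (1.72 ± 0.27, adjusted p = 0.00358) were themselves higher in castrated than in intact cells. Krt8 (-2.05 ± 0.32, limma, adjusted p = 0.00517) and Krt18 (-1.69 ± 0.16, adjusted p = 0.00039) were lower in regenerated than in castrated cells. Hoxb13, whose promoter drives the reporter, was at 8.26 to 10.27 log2 in regenerated arrays, 7.54 to 7.93 in castrated arrays and 10.19 to 10.54 in intact arrays, and its difference for castrated against intact was -2.65 ± 0.42 (limma, adjusted p = 0.00416). Of 21 leukocyte genes measured 18 had group means at or under the background limit, as had 20138 of all 30142 genes. The mean of the leukocyte list was 4.28 to 4.60 log2 in regenerated arrays, 4.62 to 4.87 in castrated arrays and 4.31 to 4.47 in intact arrays. The defining leukocyte gene Ptprc (CD45) was at 3.55 to 3.76 log2 and the macrophage gene Adgre1 (F4/80) at 3.67 to 3.93 in all arrays, below the array medians of 4.05 to 4.16. Cd68 of the same list was at 7.40 to 8.88 log2 in regenerated, 7.92 to 9.70 in castrated and 6.92 to 9.31 in intact arrays. Lyz2 reached 7.43 log2 in regenerated replicate 2, 6.52 in castrated replicate 1 and 6.59 in intact replicate 3. Neither Cd68 nor Lyz2 passed in any comparison.

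Some leukocyte genes did move with the groups. Cd14 (1.95 ± 0.35, limma, adjusted p = 0.00798) and Itgam (0.38 ± 0.08, adjusted p = 0.0181) were higher in castrated than in intact cells. Itgam, the gene of the sort marker CD11b, stayed between 3.86 and 4.42 log2 in all arrays, under the background limit. Cd3e was at 6.56, 5.73, 5.94 and 7.38 log2 in regenerated arrays, 11.32, 11.76 and 8.26 in castrated arrays and 7.58, 8.18 and 5.40 in intact arrays. Cd3e was lower in regenerated than in castrated cells (-4.04 ± 0.87, adjusted p = 0.0253), and no other T cell gene measured (Cd3g, Cd4 and Cd8a) passed in any comparison. Over all genes 4.82% were higher and 3.19% lower in castrated than in intact cells. Of 9 genes of proximal luminal cells and urothelium 4 were higher and 1 lower in castrated than in intact cells. Among the higher ones were Upk1b (5.55 ± 0.58, limma, adjusted p = 0.000458) and Cd44 (4.60 ± 0.54, adjusted p = 0.000836). The lower one was Psca (-2.82 ± 0.42, limma, adjusted p = 0.0028). Psca was higher in regenerated than in castrated cells (3.91 ± 0.39, adjusted p = 0.000459). Basal genes gave 2 of 5 higher, with list means of 5.95 to 6.54 log2 in regenerated arrays, 6.15 to 6.39 in castrated arrays and 5.47 to 5.70 in intact arrays. Group means were at or under the background limit for 4 of the 5, among them the called Krt14 and Krt17. Of 10 stromal and endothelial genes 9 were at or under the background limit and 1, Dcn, was above it. Dcn was at 10.94 to 11.89 log2 in regenerated arrays, 6.63 to 9.09 in castrated arrays and 11.40 to 12.77 in intact arrays. It was lower in castrated than in intact cells (-4.7 ± 0.61, limma, adjusted p = 0.00143). In regenerated cells it was higher than in castrated cells (3.83 ± 0.57, limma, adjusted p = 0.00394). The part of Krt8, Krt18, Cd24a, Hoxb13, Cd3e and the other markers in the levels of the interferon-stimulated genes was not tested.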

How the data were processed

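Affymetrix ClariomD (MTA-1.0) arrays were hybridised with RNA of sorted luminal cells, 1 array per sample, with RNA integrity numbers of at least 9, per the labels' protocols. The authors deposited log2 values, which they made with RMA in the program Affymetrix Expression Console, as the submitters' processing notes record. Versions and genome build are not given in the sources used here. Since RMA gives all arrays nearly the same distribution (array medians 4.05 to 4.16 log2 here), it would shrink a change shared by every transcript.

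Of 72688 rows, 65956 were not controls, and the platform annotation gave 30604 of them a single symbol (827 symbols were updated through NCBI RefSeq, GRCm38.p6). Where a gene had several such rows (355 genes) the brightest on average was kept, leaving 30142 genes. The model was a limma 3.58.1 fit (lmFit and eBayes, trend on the mean) under R 4.3.3 with the 3 groups of all 10 arrays, no covariates and 7 residual degrees of freedom. Tests were two-sided, with Benjamini-Hochberg adjustment inside each contrast, and were tested on simulated data. The labels speak of biological replicates without stating whether each is 1 animal, so the p-values rest on variation between samples whose origin is only partly known.

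The 43 genes, their classes and the pathway and marker lists were chosen with earlier results of these data known. Any of the 43 could be named, and other genes were named where called, up to 6 per list, or as the first 3 of their list. Cd3g, Cd4, Cd8a, Cd68 and Lyz2 were named after their values were seen. Replicate numbers recur across groups. Same-numbered arrays deviated with correlations of -0.157 to 0.264 (median -0.025, 9 pairs), so the numbers were not taken to pair the arrays. Alternatives were a replicate block, another quantile normalization, median centring, no trend, array weights, a background filter, the mean of a gene's rows, adjustment over all rows, a fit of the 2 groups alone, a change of at least 1 log2, and leaving out each array in turn.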

Additional observations from a re-analysis of the deposited data

Results flagged for a closer look

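In groups of 4 arrays a sample counts as far from the others when its gap to the nearest, divided by the group's range, is above Dixon's 95% critical value, a rule that chance alone passes in about 1 of 20 groups. The regenerated group was the one large enough, and 3 of the 42 genes met it there. Igtp in regenerated replicate 2 was at 5.24 log2, with the other regenerated arrays at 6.04, 6.12 and 6.18. Xaf1 in the same array was at 5.92 log2, with the others at 6.54, 6.65 and 6.66. Rsad2 in regenerated replicate 1 was at 8.87 log2, with the others at 5.76, 6.18 and 6.24.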

How the results depend on the processing

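Under the 10 settings other than leaving out an array, the number of genes higher in castrated than in intact cells ran from 14 to 23 (20 as reported) and the number lower in regenerated than in castrated cells from 7 to 17 (13 as reported). No direction of a call turned. With 1 array left out, the first number ran from 9 to 21 (GTPases 2 to 5, type I genes 7 to 17) and the second from 5 to 14 (GTPases 1 to 5, type I genes 4 to 12). Over all genes the first number (1452 as reported) ran from 914 to 2495 under the 10 settings and from 609 to 1881 with 1 array left out. The second (907 as reported) ran from 478 to 1204 and from 526 to 1051. The background filter tested 10004 genes, and adjustment over all rows covered 65956 rows. The GTPases higher in castrated than in intact cells numbered 2 under adjustment over all rows, in the fit of the 2 groups alone, and under the background filter. The genes lower in regenerated than in castrated cells numbered 7 under adjustment over all rows, the type I genes among them 5. In the fit of the 2 groups alone they numbered 9, the type I genes among them 7. Array weights raised the GTPases lower in regenerated cells to 4. The filter leaves out GTPases by its construction, and for the other settings the cause was not tested. With the replicate block the counts were 18 (GTPases 3, type I genes 15) for castrated against intact and 11 (GTPases 2, type I genes 9) for regenerated against castrated. None of the 42 genes passed for regenerated against intact under any setting run. Intact replicate 3 was the highest intact array for 32 or 33 genes under every normalization and centring run. Genes at or under the background limit had no group mean above the highest control value, which limits what can be seen of their changes. Single arrays of such genes could lie above it, as did Iigp1 at 7.47 and Gbp7 at 7.70 log2 in castrated replicate 2.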
